A study of Mus musculus with 6 samples.

Results

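The TNF superfamily ligands described here are 8 genes that activated T cells can express, namely *Tnf*, *Lta*, *Ltb*, *Tnfsf4*, *Tnfsf8*, *Tnfsf9*, *Tnfsf11* and *Tnfsf14*. They are read by all 10 probe sets of the array that are annotated to exactly 1 gene and to one of these 8, out of 45037 probe sets and 18193 genes tested. *Tnfsf11* and *Tnfsf14* have 2 probe sets each, and the other 6 genes have 1. No filter on low values was used, so that all 8 genes and all 10 probe sets are accounted for.

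The cells of all 6 arrays were splenocytes of C57BL/6 mice aged 8 to 12 weeks with the P14 transgenic T cell receptor, which recognises the LCMV peptide gp33-41. All were given this peptide for 48 hours, transduced with retrovirus 18 hours after its addition, kept for a further 48 hours in IL-2 (per the labels, while a legend of the study gives a longer time) as differentiating cytotoxic T lymphocytes (CTL), and sorted for GFP. The 3 evGFP arrays are of cells with the empty vector, and the 3 GFP-KLF2 arrays are of cells with a GFP-KLF2 fusion protein, which maintains KLF2, a transcription factor that T cells normally lose on activation. The comparison asks how the transcription of these ligands in activated T cells differs when KLF2 is maintained. The fusion protein is driven by the retroviral vector and not by the *Klf2* gene, the cells were sorted on GFP and not on CD8, and the labels call the samples biological replicates without saying how many animals each came from. The *Klf2* probe set reads sequence absent from the construct, so it does not check the labels.

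TNF superfamily ligands are mostly type II membrane proteins that assemble as trimers and bind receptors of the TNF receptor superfamily on neighbouring cells. Some are shed by metalloproteases and then act as soluble cytokines. The receptors recruit TRAF or death domain adaptors and switch on NF-kB, MAP kinases or caspases. In CD8 T cells TNF and lymphotoxin are made soon after antigen recognition as inflammatory effector molecules. By contrast, 4-1BBL, OX40L, CD30L and LIGHT are known as costimulatory ligands, of which 4-1BBL and OX40L are better known on antigen presenting cells.

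Values are log2 intensities after RMA normalisation, given as mean ± SD over 3 arrays, and fold changes are GFP-KLF2 over evGFP. A gene is said to have risen or fallen when limma gave an adjusted p under 0.046 over all 45037 probe sets. It is otherwise said not to have passed the test. This fit leaves the replicate number out, and a fit with it as a block is named as such. A gene with more than 1 probe set is read at the brightest. The smallest p that an exact permutation of 3 arrays against 3 allows is 0.1, and limma, which pools the spread over probe sets, was used instead. The median probe set lay at 5.64 to 5.67 in the 6 arrays and the upper quartile at 8.02 to 8.12. Since these are bulk samples, a lower value may come from fewer cells that express a gene or from less RNA per cell, which cannot be told apart.

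Maintaining KLF2 did not move the ligands in one direction. *Tnfsf9*, which encodes 4-1BBL, and *Tnfsf14*, which encodes LIGHT, rose by 5.6-fold and 2.38-fold, whereas *Ltb*, which encodes lymphotoxin beta, fell by 0.46 on the log2 scale. *Tnfsf11*, which encodes RANKL, was lower at both of its probe sets but passed the test at the dimmer one only. *Tnf*, *Lta*, *Tnfsf4* and *Tnfsf8* did not pass the test. Of the 8 genes 2 rose, both by at least 2-fold, 1 fell and 5 did not pass, and their median log2 fold change was 0.02. Of all 18193 genes 14.6% passed, 6.22% upwards and 8.35% downwards, with a median of -0.01, and 2.23% rose by at least 2-fold. Of the 10 probe sets 2 rose and 2 fell, whereas of all probe sets 4.76% rose and 6.39% fell, 11.2% together. The evGFP and GFP-KLF2 arrays did not overlap for 5 of the 8 genes and 7 of the 10 probe sets, as was the case for 34.9% of all genes and 29.7% of all probe sets.

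**Figure D1:**
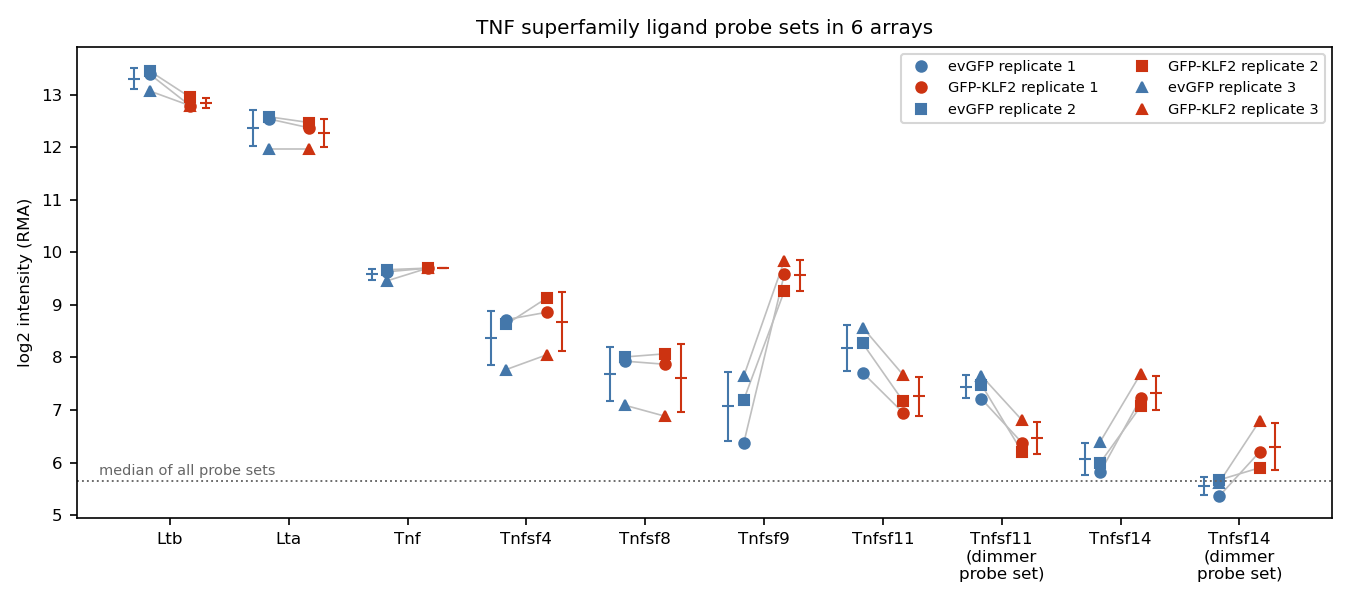
Log2 intensity of each TNF superfamily ligand probe set in each array, blue for evGFP and red for GFP-KLF2, with the replicate number as the symbol, grey lines joining arrays of the same number and bars for mean ± SD (n = 3). The dotted line is the median of all probe sets. *Tnfsf9* rises from 7.07 to 9.56, and for *Lta*, *Tnfsf4* and *Tnfsf8* the groups overlap.

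*Tnfsf9* showed the largest change of the 8 genes. 4-1BBL binds the costimulatory receptor 4-1BB, which sustains CD8 T cell survival and expansion. Its probe set gave 6.38, 7.20 and 7.65 in evGFP replicates 1, 2 and 3, and 9.58, 9.26 and 9.84 in GFP-KLF2 replicates 1, 2 and 3. The lowest GFP-KLF2 array thus lay well above the highest evGFP array. The means were 7.07 ± 0.65 and 9.56 ± 0.29, a log2 fold change of 2.49 (95% confidence limits 1.77 and 3.20, adjusted p = 0.00379). The evGFP level was under the upper quartile of the arrays and the GFP-KLF2 level above it. The difference between arrays of the same replicate number was 3.20, 2.07 and 2.19, and evGFP replicate 1, the lowest of its group, gave the largest of the 3. With any single array left out the log2 fold change stayed between 2.14 and 2.78, with adjusted p = 0.00356 to 0.02.

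*Tnfsf14* rose as well, from a lower level. LIGHT binds HVEM and the lymphotoxin beta receptor. Its brighter probe set gave 5.82, 6.00 and 6.40 in evGFP replicates 1, 2 and 3, and 7.22, 7.07 and 7.69 in GFP-KLF2 replicates 1, 2 and 3. The groups did not overlap. The log2 fold change was 1.25 (95% confidence limits 0.79 and 1.71, adjusted p = 0.00896), and arrays of the same number differed by 1.40, 1.07 and 1.28. Adjusted p was 0.00833 to 0.0429 with single arrays left out. The dimmer probe set gave 5.36 to 5.67 in evGFP arrays, at or just under the median of the arrays, and 5.90 to 6.79 in GFP-KLF2 arrays. These groups did not overlap either, but the log2 fold change of 0.75 missed the threshold (95% confidence limits 0.25 and 1.25, adjusted p = 0.0652, 0.0317 with the replicate number as a block, 0.039 without GFP-KLF2 replicate 2).

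*Tnfsf11* was lower with GFP-KLF2 at both of its probe sets. RANKL drives osteoclast formation through its receptor RANK, is made by activated T cells and acts on dendritic cells. The brighter probe set gave 7.71, 8.27 and 8.57 in evGFP replicates 1, 2 and 3, and 6.95, 7.17 and 7.67 in GFP-KLF2 replicates 1, 2 and 3. The highest GFP-KLF2 array lay just under the lowest evGFP array. The log2 fold change of -0.92 (95% confidence limits -1.50 and -0.34) missed the threshold (adjusted p = 0.0552), but passed with the replicate number as a block (0.00242), without evGFP replicate 1 (0.0353) and without GFP-KLF2 replicate 3 (0.0365). At the dimmer probe set evGFP arrays gave 7.21, 7.48 and 7.65, and GFP-KLF2 arrays 6.38, 6.21 and 6.81. This probe set fell by 0.98 on the log2 scale (95% confidence limits -1.38 and -0.57, adjusted p = 0.0135), a 1.97-fold lower level, and did not pass without evGFP replicate 2 (0.0558) or GFP-KLF2 replicate 1 (0.0527). All 3 differences between arrays of the same number were negative at both probe sets, from -0.76 to -1.10 at the brighter and from -0.83 to -1.26 at the dimmer.

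**Figure D2:**
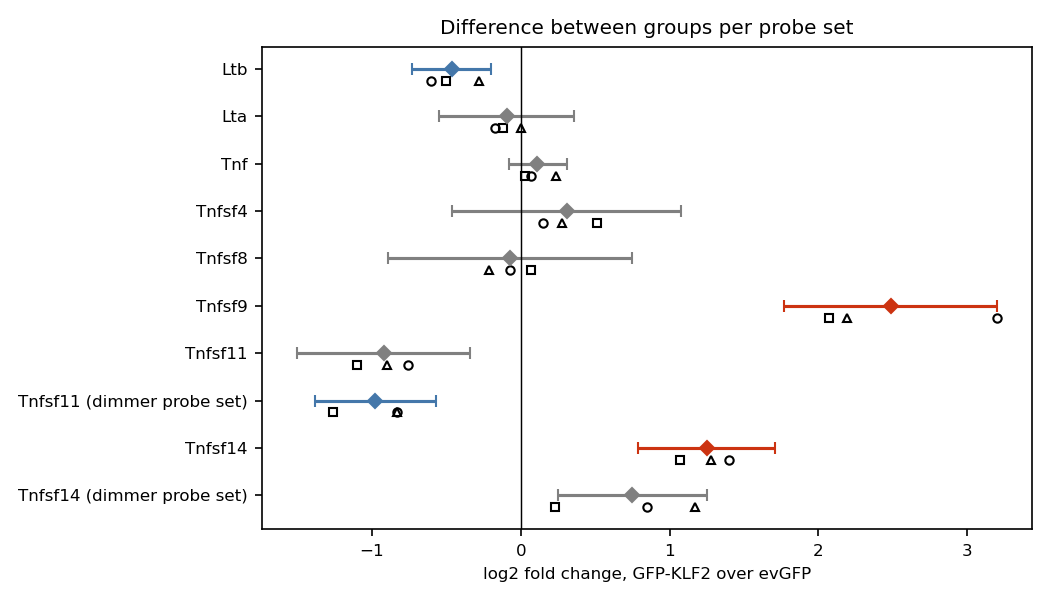
Log2 fold change of GFP-KLF2 over evGFP for each probe set, with the 95% confidence interval from limma (n = 3 per group), with risen probe sets in red, fallen ones in blue and all others in grey. Open symbols are the differences between arrays of replicate 1 (circle), 2 (square) and 3 (triangle), and at both *Tnfsf11* probe sets all of them are negative.

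*Ltb*, *Tnf* and *Lta* lie next to each other on chromosome 17, within the major histocompatibility complex, and were bright in both groups. Lymphotoxin beta anchors lymphotoxin alpha at the cell surface, where the complex signals through the lymphotoxin beta receptor in the organisation of lymphoid tissue. *Ltb* gave 13.39, 13.45 and 13.07 in evGFP replicates 1, 2 and 3, and 12.79, 12.95 and 12.79 in GFP-KLF2 replicates 1, 2 and 3. All GFP-KLF2 arrays were lower, but evGFP replicate 3 was close to them. The log2 fold change was -0.46 (95% confidence limits -0.73 and -0.20, adjusted p = 0.0411), which corresponds to a 1.38-fold lower level. Arrays of the same number differed by -0.60, -0.50 and -0.28. This small fall did not pass without evGFP replicate 1 (adjusted p = 0.125) or 2 (0.134), or GFP-KLF2 replicate 1 (0.125), 2 (0.073) or 3 (0.103), nor after cyclic loess (0.0678).

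*Tnf*, which encodes the inflammatory cytokine TNF, gave 9.63, 9.67 and 9.46 in evGFP replicates 1, 2 and 3, and 9.70 in each GFP-KLF2 array, where intensities were 832, 830 and 830. The groups were only just apart, and the log2 fold change of 0.11 missed the threshold (95% confidence limits -0.08 and 0.31, adjusted p = 0.472). *Lta*, which encodes lymphotoxin alpha, gave 12.54, 12.58 and 11.97 in evGFP arrays, and 12.37, 12.47 and 11.97 in GFP-KLF2 arrays. Its groups overlapped (log2 fold change -0.09, 95% confidence limits -0.55 and 0.36, adjusted p = 0.837).

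The remaining ligands, *Tnfsf4* and *Tnfsf8*, overlapped between groups. *Tnfsf4* encodes OX40L, whose receptor OX40 supports effector and memory T cells. It gave 8.72, 8.63 and 7.77 in evGFP arrays and 8.86, 9.13 and 8.05 in GFP-KLF2 arrays (log2 fold change 0.31, 95% confidence limits -0.46 and 1.08, adjusted p = 0.652). *Tnfsf8*, which encodes CD30L, gave 7.93, 8.01 and 7.09 in evGFP arrays and 7.87, 8.07 and 6.88 in GFP-KLF2 arrays (-0.07, 95% confidence limits -0.89 and 0.75, adjusted p = 0.941). Arrays of the same number differed by 0.15, 0.51 and 0.28 for *Tnfsf4*, all upwards, and by -0.07, 0.07 and -0.21 for *Tnfsf8*. The limits above are those of the fit without the replicate number. With the replicate number as a block adjusted p was 0.0735 for *Tnfsf4* and 0.671 for *Tnfsf8*.

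The third replicate lay at the same end of both groups for most of these ligands, which is a matter of order and not of distance. It was the lowest of its group in evGFP and in GFP-KLF2 for *Tnf*, *Lta*, *Tnfsf4* and *Tnfsf8*. It was the highest in both for *Tnfsf9*, *Tnfsf11* and *Tnfsf14*, and neither for *Ltb*. For *Tnf* the GFP-KLF2 arrays were nearly equal, so that their order carries no weight. Replicate 3 was lowest in both groups for 19.7% of all genes and highest in both for 18.4%, against 4, with *Tnf* among them, and 3 of these 8. The differences between arrays of the same number, given for each changed ligand above, leave this shared part out.

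Upstream sequence was compared for *Ltb*, which fell, *Tnfsf14*, which rose, and *Tnfsf11*, which passed the test at its dimmer probe set only. *Tnf*, which did not pass the test, stands beside them. The 250 bases before an annotated start are from RefSeq (GRCm38.p6), where 6 of the 8 ligands matched and *Tnfsf4* and *Tnfsf9* did not. For *Lta* and *Tnfsf8* the start in that table lies inside a longer transcript of the same gene, so that most of the window is within the gene, and their windows are not described. Capitals mark the motif CACCC, which Krüppel-like factors bind, on either strand, so that GGGTG is the motif on the other strand. The stretches are *Ltb* (chr17:35194257-35194506, plus strand), *Tnfsf11* (chr14:78308044-78308293, minus strand), *Tnfsf14* (chr17:57194182-57194431, minus strand) and *Tnf* (chr17:35202008-35202257, minus strand).
Ltb: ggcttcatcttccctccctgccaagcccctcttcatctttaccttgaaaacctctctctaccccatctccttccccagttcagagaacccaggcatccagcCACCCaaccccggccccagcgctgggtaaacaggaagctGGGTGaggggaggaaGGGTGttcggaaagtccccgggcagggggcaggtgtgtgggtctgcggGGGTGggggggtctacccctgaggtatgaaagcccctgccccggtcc
Tnfsf11: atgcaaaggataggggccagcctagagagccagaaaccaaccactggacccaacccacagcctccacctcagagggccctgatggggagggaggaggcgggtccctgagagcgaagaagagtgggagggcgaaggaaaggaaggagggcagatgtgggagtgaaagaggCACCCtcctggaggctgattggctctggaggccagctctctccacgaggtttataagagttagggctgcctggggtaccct
Tnfsf14: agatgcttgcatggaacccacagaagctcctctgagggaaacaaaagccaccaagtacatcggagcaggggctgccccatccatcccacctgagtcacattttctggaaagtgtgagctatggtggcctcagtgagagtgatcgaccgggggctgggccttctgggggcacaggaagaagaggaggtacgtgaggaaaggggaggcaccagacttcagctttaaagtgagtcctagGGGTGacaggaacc
Tnf: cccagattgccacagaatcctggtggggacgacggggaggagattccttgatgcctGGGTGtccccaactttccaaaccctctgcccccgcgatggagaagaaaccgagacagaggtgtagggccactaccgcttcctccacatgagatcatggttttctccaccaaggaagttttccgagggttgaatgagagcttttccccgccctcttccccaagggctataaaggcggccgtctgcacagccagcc

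The CACCC motif occurred 4 times before *Ltb* and 1 time each before *Tnf*, *Tnfsf11* and *Tnfsf14*. It occurred in 52% of all 32851 promoters over the same length, with a mean of 0.833 matches per promoter. A loose NF-kB motif, GGG and CC with any 5 bases between them, occurred before each of these genes and in 45.8% of all promoters. GGAAA, the core of the NFAT motif, also occurred before each of them, and in 55.6% of all promoters. TGANTCA, the AP-1 motif, occurred before *Tnfsf14* and not before the others, 160 bases from its start, and in 6.75% of all promoters. Motifs were searched on both strands. The CACCC match of *Tnf* overlaps its loose NF-kB match, and the GGAAA match of *Ltb* overlaps one of its loose NF-kB matches. These matches are letters in a window and were not tested for binding.

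*Tnfsf9* and *Tnfsf14* are also neighbours on chromosome 17, apart from *Ltb*, *Tnf* and *Lta*, with another ligand gene, *Cd70*, between them. *Cd70*, which encodes the ligand of CD27, is no member of the list and was chosen for its place after the values of its neighbours were seen. Its level of 4.17 ± 0.21 in evGFP and 4.50 ± 0.13 in GFP-KLF2 lay near the lower quartile of the arrays, 4.18 to 4.25, and its log2 fold change of 0.32 missed the threshold (adjusted p = 0.149, 0.0482 in the blocked fit). Among the 10 protein-coding genes on each side of *Tnfsf9* to *Tnfsf14*, 17 were measured, of which 3 rose and 1 fell. These were *Dennd1c* (0.96), *Trip10* (0.78), *Gpr108* (0.43) and *Alkbh7* (-0.64). Around *Ltb* to *Lta* 12 were measured, of which *H2-Q10* rose (2.09) and *Ddx39b* fell (-0.34). *H2-Q10* belongs to a family of near-identical genes that probe sets may not separate. These counts stand beside the 14.6% of all genes that passed.

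**Figure D3:**
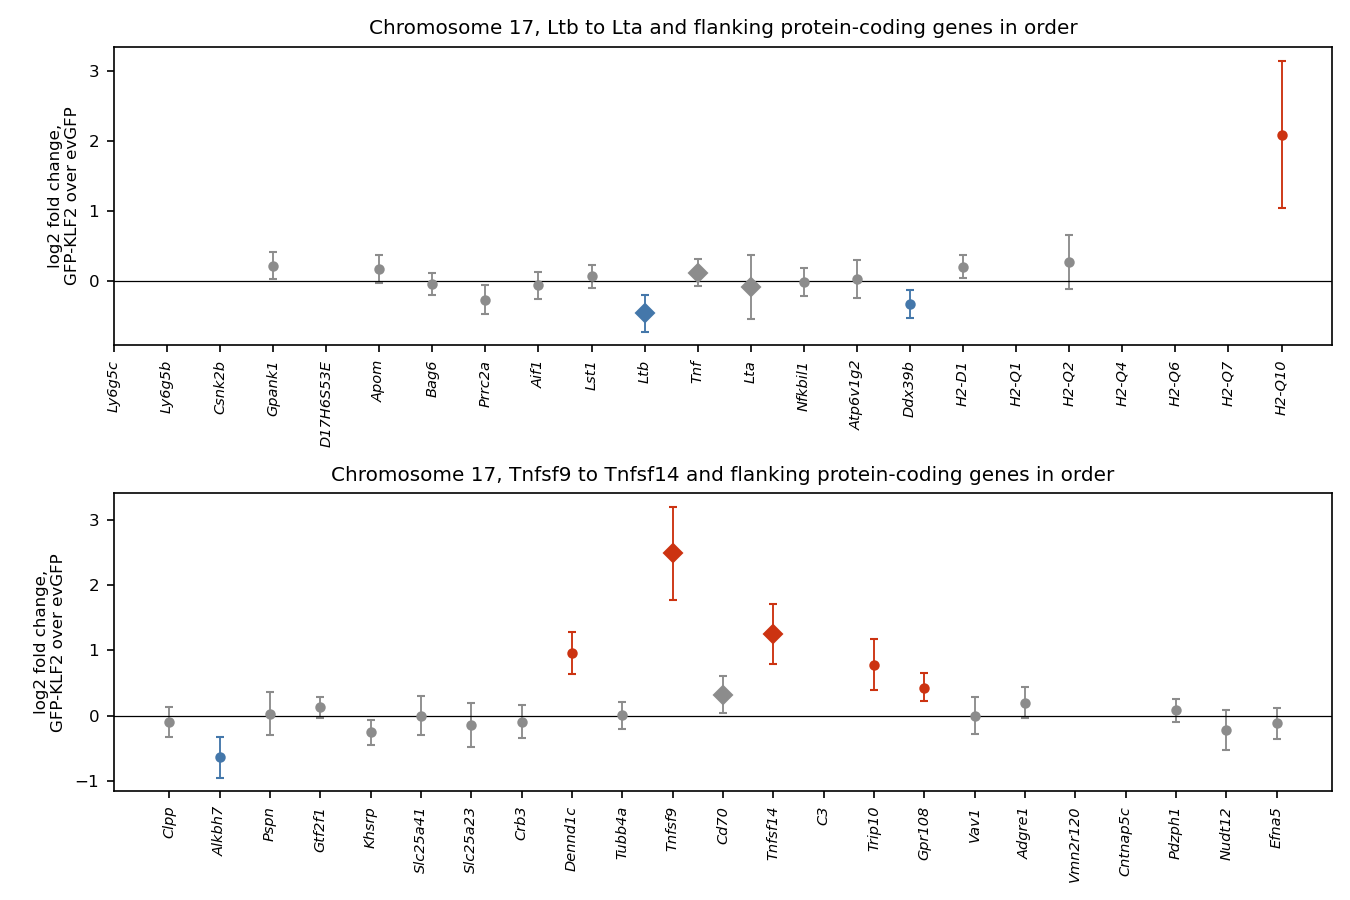
Log2 fold change of GFP-KLF2 over evGFP with its 95% confidence interval (n = 3 per group) for TNF superfamily ligands (diamonds) and the protein-coding genes next to them (circles), in their order on chromosome 17 and not to scale. Red points rose, blue fell, grey did not pass the test, and a gene without a point is not analysed here. *Tnfsf9* and *Tnfsf14* lie above 1 while *Cd70* between them is at 0.32.

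Of the receptors of these ligands, with *Btla* counted among them, 2 of 10 rose and the remaining 8 missed the threshold. *Btla* binds HVEM and is not itself a receptor of these ligands. The median log2 fold change of the 10 was -0.05. Beside this, 6.22% of all genes rose and 8.35% fell. *Tnfrsf4* encodes OX40, the receptor of OX40L. It gave 10.41, 10.45 and 10.06 in evGFP arrays and 11.82, 12.02 and 11.60 in GFP-KLF2 arrays, 2.84-fold apart (log2 fold change 1.50, 95% confidence limits 1.17 and 1.83, adjusted p = 0.00158). The gene of its ligand, *Tnfsf4*, did not pass the test (0.31, 95% confidence limits -0.46 and 1.08). Whether receptor and ligand differ in their change was not tested. *Tnfrsf11a*, which encodes RANK, rose by 0.71 on the log2 scale (adjusted p = 0.0061), from a level of 5.26 ± 0.034 that is under the median probe set. *Tnfrsf9* encodes 4-1BB, the receptor of 4-1BBL. It was bright, at 11.11, 11.21 and 11.61 in evGFP arrays and 12.05, 11.51 and 12.04 in GFP-KLF2 arrays, which overlap. Its log2 fold change of 0.55 missed the threshold (95% confidence limits 0.12 and 0.98, adjusted p = 0.107, 0.0377 in the blocked fit). Another *Tnfrsf9* probe set, nearly as bright at 11.22 in evGFP and 11.53 in GFP-KLF2, had 0.31 (95% confidence limits -0.22 and 0.84, adjusted p = 0.492). A dim one, at 3.72 in evGFP, had -0.01.

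The receptors of TNF, *Tnfrsf1a* and *Tnfrsf1b*, had log2 fold changes of -0.06 and -0.11, and the lymphotoxin beta receptor *Ltbr* of -0.09. *Tnfrsf8*, which encodes CD30, had -0.27. HVEM, encoded by *Tnfrsf14*, had -0.05, and *Btla*, the inhibitory receptor that binds HVEM, had -0.14. *Btla* varied widely, from 7.70 to 10.04 in evGFP arrays and from 7.91 to 9.21 in GFP-KLF2 arrays. *Tnfrsf11b*, which encodes osteoprotegerin, the decoy receptor of RANKL, had 0.03 at its brighter probe set. Its dimmer probe set, at 3.84 in evGFP cells and so under the lower quartile of the arrays, fell by 0.66 on the log2 scale (adjusted p = 0.00458).

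**Figure D4:**
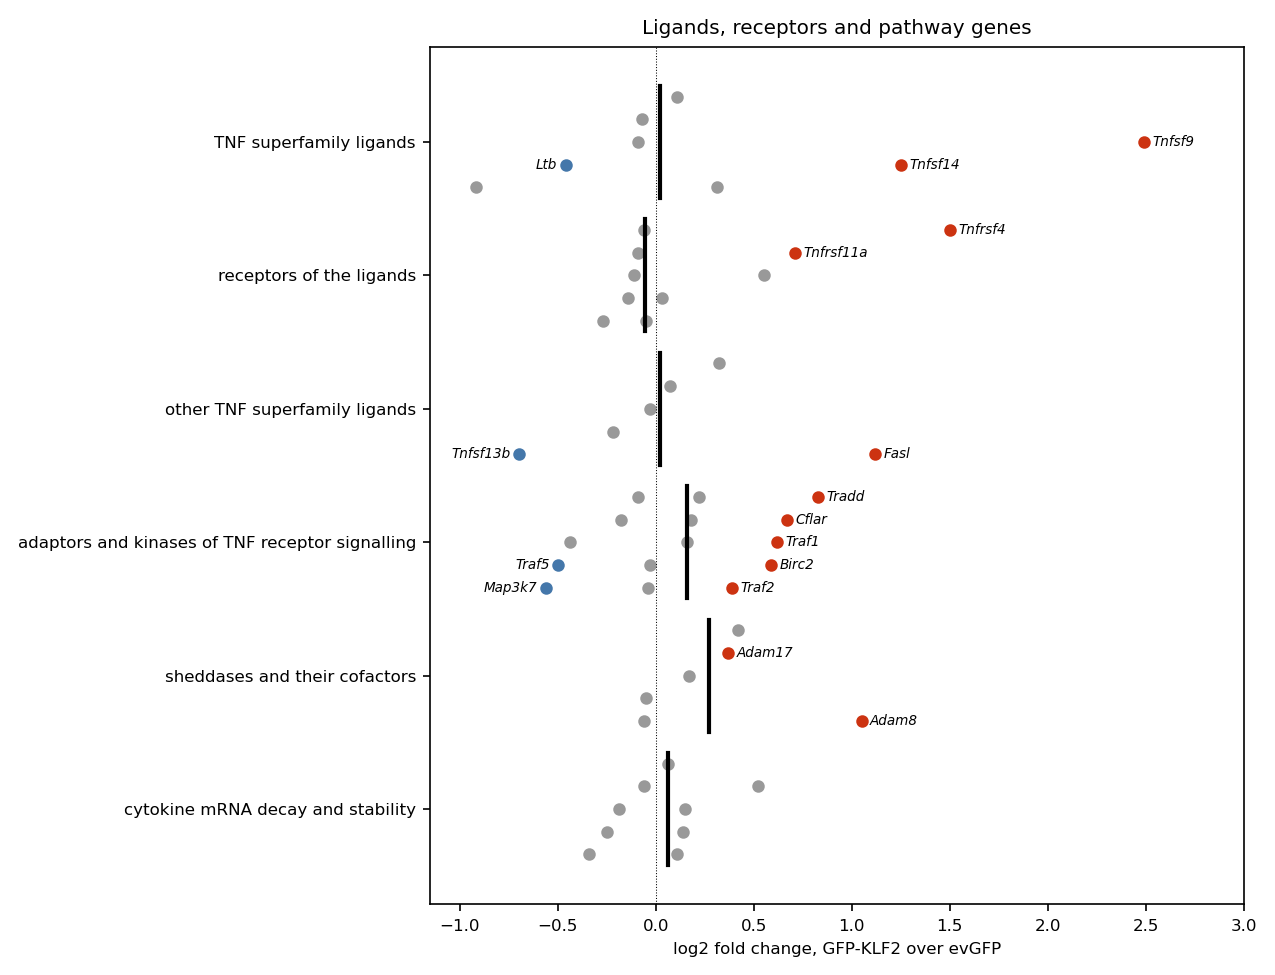
Log2 fold change of GFP-KLF2 over evGFP for each measured gene of the ligands, their receptors (with *Btla*) and 4 lists of pathway genes. Each gene has 1 point, at its brightest probe set. Red points rose, blue points fell, grey points passed neither way, and a vertical black line marks each list's median, which is 0.02 for the ligands and -0.05 for the receptors.

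Other ligands of the superfamily were likewise split. Of 6 measured, 1 rose, 1 fell and 4 did not pass the test (median 0.02), beside 6.22% and 8.35% of all genes that rose and fell. *Fasl*, which encodes the death ligand of CTL, rose by 1.12 (adjusted p = 0.00705) and its second probe set by 0.91 (0.0204). *Tnfsf13b*, which encodes the B cell survival factor BAFF, fell by 0.70 on the log2 scale (adjusted p = 0.00841), from a dim 5.58 ± 0.19 to 4.88 ± 0.070. *Tnfsf12*, *Tnfsf13*, *Tnfsf15* and *Tnfsf18* are not analysed here.

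Among adaptors and kinases that carry signals from TNF receptors, 5 of 15 measured rose, 2 fell and 8 did not pass the test (median 0.16). Of all genes 6.22% rose and 8.35% fell. *Tradd*, the death domain adaptor of TNF receptor 1, rose by 0.83 (adjusted p = 0.00848). *Cflar*, which encodes the caspase-8 inhibitor c-FLIP, rose by 0.67 (0.00443), *Traf1* by 0.62 (0.0242) and the ubiquitin ligase *Birc2* by 0.59 (0.0109). *Traf1*, an adaptor of 4-1BB, did not pass without evGFP replicate 1 or 2 or GFP-KLF2 replicate 1 or 3 (adjusted p = 0.0603 to 0.0908), nor *Birc2* without evGFP replicate 2 (0.0502). *Traf2* also rose (0.39, 0.0366). The genes that fell were *Map3k7*, which encodes the kinase TAK1 (-0.56, 0.0194), with 2 of its dimmer probe sets, and *Traf5*, an adaptor of OX40 (-0.50, 0.0379). *Tab2* just missed the threshold at its brightest probe set (-0.44, adjusted p = 0.048), while its dimmer one fell (-0.43, 0.0307). *Traf3*, *Ripk1* and *Chuk* are not analysed here. The number that rose was 3 without evGFP replicate 1 or GFP-KLF2 replicate 1 and 2 without evGFP replicate 2. The number that fell was 0 without GFP-KLF2 replicate 2 and 1 without any other single array.

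Among 6 genes of sheddases and their cofactors, with the metalloprotease inhibitor *Timp3* (-0.06) counted among them, 2 rose. The other 4 missed the threshold (median of the 6 0.27). The share of all genes that rose was 6.22%. *Adam17*, the protease that releases TNF from the cell surface, rose by 0.37 (adjusted p = 0.0182), from 9.86 ± 0.033 to 10.22 ± 0.048. Of its dimmer probe sets one rose by 0.37 (0.0433) and the other had 0.25 (0.143). It did not pass without evGFP replicate 1 or 2 or GFP-KLF2 replicate 1 or 3 (adjusted p = 0.0515 to 0.0676). *Adam8* rose by 1.05 (0.0178), but not without evGFP replicate 2 or GFP-KLF2 replicate 2 or 3 (adjusted p = 0.0473 to 0.0593). Of 9 factors that control the decay or stability of cytokine mRNA, 0 passed the test with limma, although 4 had an unadjusted p under 0.05, and their median was 0.06. This count depended on the setting, since 1 rose in the blocked fit, 1 rose and 1 fell with array weights, and 1 rose and 2 fell with an intensity trend. *Zfp36l1* had the largest change of this list and was higher, but missed the threshold at both probe sets (0.52, adjusted p = 0.0504, and 0.48, 0.0565). Dimmer probe sets of *Khsrp*, which encodes an mRNA decay factor, fell (-0.38, adjusted p = 0.0306, and -0.39, 0.0145). One of the 7 probe sets of *Rc3h2* also fell (-0.37, 0.0195), from a dim 5.52 to 5.15, and its others did not pass. The brightest probe sets of *Khsrp* and *Rc3h2* had -0.25 and 0.15.

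The genes whose profile over the 6 arrays came nearest to that of a changed ligand were found by the root mean square difference of log2 values, each gene centred on its own mean. For *Tnfsf9* these were *Havcr2*, which encodes the inhibitory receptor TIM-3 (0.216), *Nrp1*, which encodes neuropilin 1 (0.222), and the small GTPase gene *Gem* (0.233), with log2 fold changes of 2.50, 2.33 and 2.56. For *Tnfsf14* they were *Cox7a1* (0.0765), *Rtl5* (0.106) and *Adamts10* (0.108), with log2 fold changes of 1.27, 1.23 and 1.20. For *Ltb* they were *Znrd2* (0.033), *5830468F06Rik* (0.0347) and *Mrpl47* (0.0354), with log2 fold changes of -0.45, -0.49 and -0.48. That their changes resemble those of the ligands follows from how they were chosen.

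Markers of CD8 T cells and of other cells were read in the same arrays, and sums of different lists are not comparable with each other. The summed intensity of 6 markers of CD8 T cells was 33400 to 35200 in evGFP arrays and 35800 to 37700 in GFP-KLF2 arrays, and *Cd8b1* rose (0.45) while the other 5 did not pass the test. Other cells of the spleen can also express these ligands. For 5 B cell markers the sums were 265 to 282 and 251 to 381, for 9 myeloid and dendritic cell markers 452 to 514 and 500 to 535, and 0 genes of either list passed the test with limma, with an unadjusted p under 0.05 for 2 B cell and 0 myeloid genes. For 3 CD4 T cell markers they were 261 to 306 and 341 to 373, and *Zbtb7b* rose (0.45), whereas *Cd4* had 0.11. For 3 NK cell markers they were 61.3 to 70.9 and 124 to 157, where *Tyrobp*, which encodes an adaptor of activating NK receptors, rose (1.48) and the defining marker *Ncr1* was at 4.22 and 4.34. *Sox13*, the only measured marker of gamma-delta T cells, had 0.11. The part of these cells in the changes of *Tnfsf9*, *Tnfsf14*, *Ltb* and *Tnfsf11* was not tested.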

How the data were processed

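RNA of 3 evGFP and 3 GFP-KLF2 samples was labelled from 250 ng and hybridised to Affymetrix mouse genome 430 2.0 arrays. The authors made the deposited intensity values by RMA (background correction, quantile normalisation and a summary of each probe set). They are on a linear scale, from 5.74 to 33600. Tool versions are not given in the sources used here, and raw array files were not used here.

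Values were converted to log2, 64 control probe sets of 45101 were removed, and groups were compared with limma 3.58.1 in R 4.3.3 (package data.table, version 1.17.8), with a constant per group and Benjamini-Hochberg adjustment over 45037 probe sets. The methods print the threshold as 0.046%, and an adjusted p under 0.046 was used here, with 0.00046 as an alternative. Of the probe sets 34945 are annotated to 1 gene, 932 to several and 9160 to none, and 34741 matched RefSeq (GRCm38.p6), which updated symbols. Same-numbered arrays deviated alike from their group means (correlations 0.33, 0.44 and 0.47). The numbers, which the labels give, were therefore taken to pair the arrays where differences between same-numbered arrays are given. The main fit does not use this pairing, and a replicate block was an alternative. In the blocked fit 3033 of all probe sets rose and 4292 fell, against 2145 and 2877 in the main fit. The fit was tested on simulated data. That simulation drew independent noise for each array, unlike the deviations that same-numbered arrays share here, and no statement above rests on it.

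The ligands and all lists were chosen with earlier results of these data known. All ligands and receptors are named, and up to 4 genes per other list that passed and changed most. *Cd70*, *Traf2*, *Traf5*, *Map3k7*, *Tab2*, *Timp3*, *Khsrp*, *Rc3h2*, *Zfp36l1* and genes next to the ligands were named after their values were seen. For changed ligands the 3 nearest genes are named. The number of arrays limits the precision, and p-values measure the spread between these samples only.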

Additional observations from a re-analysis of the deposited data

How the results depend on the processing

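Signal over background limits what can be seen of dim genes such as *Cd70* and *Tnfrsf11a*, and 3 arrays per group limit the precision. *Tnfsf9* and *Tnfsf14* rose under every alternative except the threshold of 0.00046. The looser threshold of 0.05 and the 2-fold requirement act on the same fit and could not have changed these calls. At 0.00046, 0 ligand probe sets and 0 ligands passed in either direction, as did 0 genes of the receptor and pathway lists. Of all probe sets 51 rose and 4 fell there. With at least 2-fold required, 0 ligands and 0 of their probe sets fell, 3 genes of the receptor and pathway lists rose and 0 fell, and of all probe sets 667 rose and 202 fell. The ligands that fell numbered 2 with the replicate block, without probe sets of a mean under 6, with array weights and with a gene's probe sets averaged, since *Tnfsf11* passed in each of these beside *Ltb*. After cyclic loess 0 ligands and 1 of their probe sets fell, and 1866 of all probe sets fell. The replicate block moved the call of *Tnfsf11*, the dimmer *Tnfsf14* probe set and *Tnfrsf9* and of no other ligand or receptor. Of the genes of the receptor and pathway lists together 10 rose and 3 fell, and the number that fell was 6 with an intensity trend, 5 with array weights and 6 with probe sets averaged.

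With single arrays left out, 0 to 1 ligands and 0 to 2 of their probe sets fell, 2 to 3 of the probe sets rose, 1045 to 1949 of all probe sets rose and 1089 to 2078 fell, and of the receptor and pathway lists 5 to 9 genes rose and 1 to 2 fell. Of the sheddases 0 rose without evGFP replicate 2 or GFP-KLF2 replicate 3, and 1 without evGFP replicate 1 or GFP-KLF2 replicate 1 or 2. The values that changed sign had not passed the test. Without single arrays the log2 fold change ran from -0.36 to 0.30 for *Tnfsf8*, -0.29 to 0.06 for *Lta*, -0.74 to 0.43 for *Btla*, -0.23 to 0.06 for *Ltbr*, -0.27 to 0.01 for *Tnfrsf1b*, -0.15 to 0.04 for *Tnfrsf14* and -0.02 to 0.11 for *Tnfrsf11b*. *Tnfrsf1a* had 0.03 after cyclic loess. With array weights *Ltbr* had 0.03, *Tnfrsf14* 0.06 and *Tnfrsf11b* -0.04. *Tnfrsf11b* fell with the mean of its probe sets (-0.32, adjusted p = 0.0366).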
